A study of Mus musculus with 12 samples.

Results

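Axon guidance ligands and receptors were followed in RNA-seq of mouse spinal cord: the semaphorins of classes 3 to 7, the plexins and neuropilins, the Slits and Robos, the netrins and netrin-Gs with Dcc and the Unc5 receptors, and the ephrins with the Eph receptors. The genes were taken from the count table by symbol and by their annotation as protein-coding, without use of any measured value, and there were 70 of them (36 ligands and 34 receptors) among 54532 genes. These proteins steer growing axons by attraction and repulsion during development, and many stay expressed in the adult cord in neurons, glia, vessels and immune cells. Semaphorins signal through plexins, with neuropilins as co-receptors for most secreted class 3 members. Slits act on Robos, netrin-1 acts on Dcc and the Unc5 receptors, and ephrins are membrane-bound ligands of the Eph receptor tyrosine kinases. In the injured or inflamed adult cord several of them are known as barriers to axon regrowth, and some class 4 semaphorins, plexins and neuropilins act in immune cells and endothelium.

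The study sequenced total RNA of whole spinal cord from C57BL/6 mice 2 to 3 months old, in 12 libraries, 3 in each of 4 groups, each labelled a separate biological replicate. The groups were Drd2mGFAP cKO mice (cKO here) at day 17 of experimental autoimmune encephalomyelitis (EAE, an immunisation-induced inflammatory disease of the central nervous system), control mice (genotype wt, littermates) at day 17 of EAE, cKO mice at the basal state, and control mice at the basal state. Drd2 encodes the dopamine receptor D2. GFAP is the intermediate filament of astrocytes, and its promoter is commonly used to direct Cre to them, but the labels do not describe the Cre line or the deleted part of Drd2.

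Library totals were 15128913 to 17592105 counts, so that 1 count was worth 0.0552 to 0.0910 CPM, the count scaled to the library total and its TMM factor. A pair of libraries stood apart. The cKO basal 2 library had counts in 17220 genes, against 24303 to 26056 in the other 11, and the summed level of the guidance genes was 1880 CPM in it, against 2511 to 3472 CPM in the others. It had 8 guidance genes at 0 and was the lowest of its group for 57 of the 70. Control basal 1 was the lowest of its group for 59 of the 70, with a summed level of 2511 CPM, but had none at 0 and counts in 24303 genes. The cKO EAE 3 library had 6.56 CPM of Cd74, the MHC class II invariant chain, against 340 to 2736 CPM in the other EAE libraries and 1.00 to 3.09 CPM in basal ones. Sex differed with disease: the EAE libraries had 69.7 to 74.5 CPM of the Y-linked Ddx3y and at most 0.287 CPM of Xist, and the basal libraries had 0 CPM of Ddx3y and 316 to 753 CPM of Xist. EAE and sex therefore cannot be told apart in any EAE against basal value below. Drd2 ran at 6.73 to 19.4 CPM in cKO EAE, 8.89 to 9.62 CPM in control EAE, 17.6 to 34.7 CPM in cKO basal and 19.4 to 26.5 CPM in control basal libraries, ranges that overlap between the genotypes, so Drd2 in whole cord does not check the genotype labels. Markers of the tissue's own cells were present in every group, with neuronal markers summing to at least 2164 CPM and astrocyte markers to at least 2639 CPM in each library.

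In EAE in control cords 2 of these genes, Plxnd1 and Nrp1, rose and another 2, Ntng1 and Slit2, fell. The stretches just upstream of their RefSeq starts are shown as examples of both directions. They are the 250 bases before the RefSeq start, 5′ to 3′ on the gene's strand, in build GRCm38.p6 (mm10), and the capitals mark GC boxes (GGGCGG) and, in Slit2, a TATA box (TATAAA). They lie at chr6:115995006-115995255 on the minus strand for Plxnd1, chr8:128358823-128359072 on the plus strand for Nrp1, chr3:110143473-110143722 on the minus strand for Ntng1, and chr5:47982905-47983154 on the plus strand for Slit2. The RefSeq start is 0 bases from the gene start of the count table for Plxnd1, 469 for Nrp1, 539 for Ntng1 and 17 for Slit2. For Nrp1 and Ntng1 it lies downstream of that gene start, and the stretch shown falls inside the gene as the count table annotates it.
Plxnd1: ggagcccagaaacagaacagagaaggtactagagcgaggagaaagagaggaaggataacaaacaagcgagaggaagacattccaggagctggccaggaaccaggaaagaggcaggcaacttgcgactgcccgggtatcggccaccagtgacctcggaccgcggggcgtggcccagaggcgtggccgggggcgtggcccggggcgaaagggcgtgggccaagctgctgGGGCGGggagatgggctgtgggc
Nrp1: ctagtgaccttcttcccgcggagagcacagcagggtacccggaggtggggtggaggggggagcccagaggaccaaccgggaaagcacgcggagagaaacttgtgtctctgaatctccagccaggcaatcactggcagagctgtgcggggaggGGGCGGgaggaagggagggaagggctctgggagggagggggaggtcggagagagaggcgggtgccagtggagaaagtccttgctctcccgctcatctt
Ntng1: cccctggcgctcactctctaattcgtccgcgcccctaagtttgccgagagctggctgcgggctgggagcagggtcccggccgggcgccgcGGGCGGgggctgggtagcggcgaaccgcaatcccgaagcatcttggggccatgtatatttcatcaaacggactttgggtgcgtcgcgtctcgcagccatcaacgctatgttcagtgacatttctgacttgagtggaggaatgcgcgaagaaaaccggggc
Slit2: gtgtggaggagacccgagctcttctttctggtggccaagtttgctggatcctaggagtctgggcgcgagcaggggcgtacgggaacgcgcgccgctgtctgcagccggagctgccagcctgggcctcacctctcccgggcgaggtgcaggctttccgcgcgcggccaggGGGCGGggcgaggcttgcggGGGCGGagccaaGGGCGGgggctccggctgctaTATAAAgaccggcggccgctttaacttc

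All 4 stretches are rich in G and C, at 64.8% in Plxnd1, 64.4% in Nrp1, 62.4% in Ntng1 and 69.6% in Slit2. Each holds a GC box. That motif is common in the windows of guidance genes, so 4 genes picked by direction cannot show whether it differs between the directions. RefSeq gave windows of 300 bases (250 before and 50 after a start) for 60 of the 70 genes, 76 windows in all. On either strand GGGCGG was in 69.7% of these windows and in 35.7% of all promoter windows, and the median G and C content was 64.0% against 52.7%. TATAAA was in 2.63% against 13.6%. The interferon-gamma-activated sequence TTCNNNGAA was in 3.95% against 8.30%, the AP-1 motif TGANTCA in 3.95% against 7.81%, and the E-box CACGTG in 6.58% against 7.15%. These matches describe letters in a window only.

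Levels differed widely between the guidance genes. Expressed per length (CPM per kb of gene length, averaged over the 12 libraries), the highest was Efnb3, which encodes ephrin-B3, a midline barrier to corticospinal axons and a growth inhibitor in myelin, at 57.7. The semaphorins Sema7a (membrane-anchored, 39.3) and Sema4d (made by oligodendrocytes and lymphocytes, 25.1) followed, and then the receptors Plxnb2 (18.1) and Plxnb1 (17.8), the ligand Sema6b (17.6) and the receptor Plxnb3 (16.5). The median of the 70 genes was 3.93, and Epha3 (0.196), Efna4 (0.155) and Ntn5 (0.139) were lowest. Low levels kept Efna4, with 51 counts over the 12 libraries, and Ntn5, with 63, out of the tests, which left 68.

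The order at the top held for some neighbours and not for others. Efnb3 had 61.6 CPM per kb in cKO EAE, 36.9 in control EAE, 54.0 in cKO basal and 78.2 in control basal cords. Sema7a had 45.4, 39.1, 29.1 and 43.6 CPM per kb in the same groups, so in control EAE cords it stood above Efnb3 by less than the SD of Efnb3 there. Over the 12 libraries Plxnb1, Sema6b and Plxnb3 differed by less than the SD of Plxnb3 in any group, while Plxnb2 was 37.1 CPM per kb in control EAE cords and 9.21 in control basal cords and so changed its place with disease. In several families 1 member led: Slit1 (9.58 CPM per kb) stood over Slit2 (2.36) and Slit3 (2.06), and Efnb3 over Efnb2 (1.53) and Efnb1 (1.26).

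**Figure D1:**
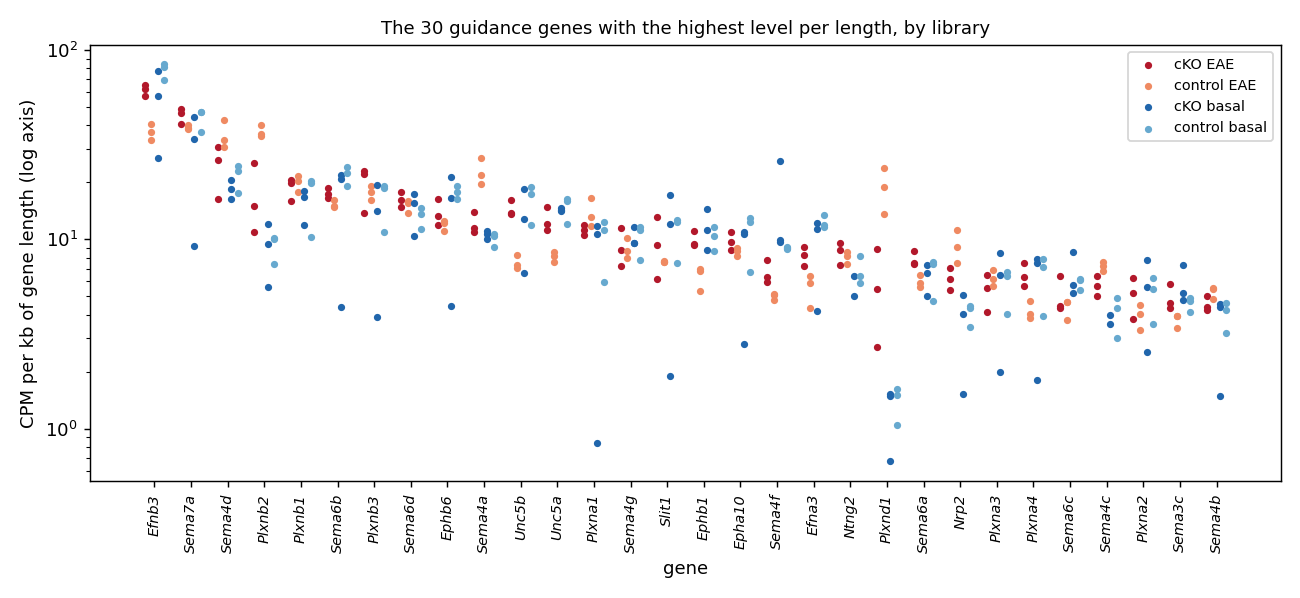
The 30 guidance genes with the highest level, as CPM per kb of gene length on a log axis, with 1 point per library coloured by group. Efnb3, at 57.7 on average, leads, and Plxnb2 lies at 37.1 in control EAE and 9.21 in control basal cords.

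The first question was how disease changed the guidance genes in control mice. Plxnd1, Plxnb2, Nrp1, Nrp2 and Sema4a rose in control EAE cords relative to control basal cords, between 1.18 and 3.75 on the log2 scale, and 7 genes of the netrin, Slit, ephrin and Eph systems fell. In all 12 of 68 tested guidance genes were called at an adjusted p below 0.05 (edgeR quasi-likelihood F test, Benjamini-Hochberg over all genes tested), which is 17.6%, against 17.1% of all 18601 genes tested, so the number called is near the background. By direction, 5 were up (7.35%, against 12.1% of all genes) and 7 were down (10.3%, against 5.05%). At an unadjusted p below 0.05 there were 27 (39.7%, against 28.6% of all genes). Every control EAE library lay above every control basal library for 14 of the 68 (20.6%, against 29.8%) and below for 27 (39.7%, against 27.0%). The median log2 fold change was −0.34 over the guidance genes and −0.01 over all genes.

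Plxnd1, at chr6:115954811-115995005, encodes plexin D1, a receptor for Sema3e best known in vessels. It had 173, 138 and 99.4 CPM in control EAE libraries, against 7.63, 11.9 and 11.0 CPM in control basal libraries. Every EAE library lay far above every basal one, and the log2 fold change was 3.75 with SE 0.48 (adjusted p 0.00318 in edgeR's test). Plxnb2, at chr15:89155549-89180788, encodes plexin B2, a receptor for class 4 semaphorins. It had 309, 271 and 280 CPM in control EAE libraries, against 57.0, 78.7 and 77.6 CPM in control basal libraries. The groups did not overlap, and the gene rose by 2.01 (SE 0.34, edgeR adjusted p 0.00383).

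Both neuropilins, the co-receptors for class 3 semaphorins and for vascular endothelial growth factors, rose. Nrp1, at chr8:128358604-128503363, had 59.4, 54.3 and 51.7 CPM in control EAE libraries, against 16.0, 21.9 and 21.3 CPM in control basal libraries. Its log2 fold change was 1.48 with SE 0.23 (edgeR adjusted p 0.00319), and Nrp2 rose by 1.18 with SE 0.36 (edgeR adjusted p 0.0449). Nrp2 had 133, 107 and 88.7 CPM in control EAE against 40.9, 51.3 and 52.5 CPM in control basal, again without overlap. Among ligands, Sema4a, which also acts on T cells, was the only gene called up. It had 145, 106 and 119 CPM in control EAE libraries, against 49.3, 56.1 and 57.6 CPM in control basal libraries, a log2 fold change of 1.18 with SE 0.17 (edgeR adjusted p 0.00318).

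Other semaphorins and plexins, among them ligands of plexin D1 and neuropilin-1, had values of either sign. Sema4d, a ligand of plexin B1, was at 0.72 (SE 0.25, edgeR adjusted p 0.0766) with 329, 257 and 236 CPM in control EAE against 136, 187 and 176 CPM in control basal libraries. Sema3e, the ligand of plexin D1, was at −0.78 with SE 0.35, and Sema3a, the classic neuropilin-1 ligand, at −0.58 with SE 0.25. Plxnc1, the receptor of Sema7a, was at 0.94 with SE 0.33, and Sema7a at −0.16 with SE 0.42. None of these passed the test in this fit. Of 7 other settings, Sema4d and Plxnc1 were called in 4, Sema3a in 3 and Sema7a in 1.

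Macrophage and T cell markers moved in the same direction as these genes. The summed level of 7 microglia and macrophage markers was 2261 to 4908 CPM in control EAE libraries and 119 to 135 CPM in control basal libraries, all 7 called up. The 5 T cell markers, also all called up, summed to 71.4 to 78.6 CPM and to 3.20 to 4.25 CPM, with Cd3g at 0 in every control basal library. The 5 endothelial markers summed to 245 to 290 CPM and to 142 to 151 CPM, with 1 called up. The 5 markers of fibroblasts and meninges summed to 335 to 343 CPM in control EAE and 96.8 to 103 CPM in control basal libraries, 4 called up, and the 6 astrocyte markers to 7819 to 9257 CPM and 4013 to 4648 CPM, 2 called up. Since these are whole-tissue libraries, a change in the number of cells of a type and a change in RNA per cell cannot be told apart. The part of these cell types in the changes was not tested.

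**Figure D2:**
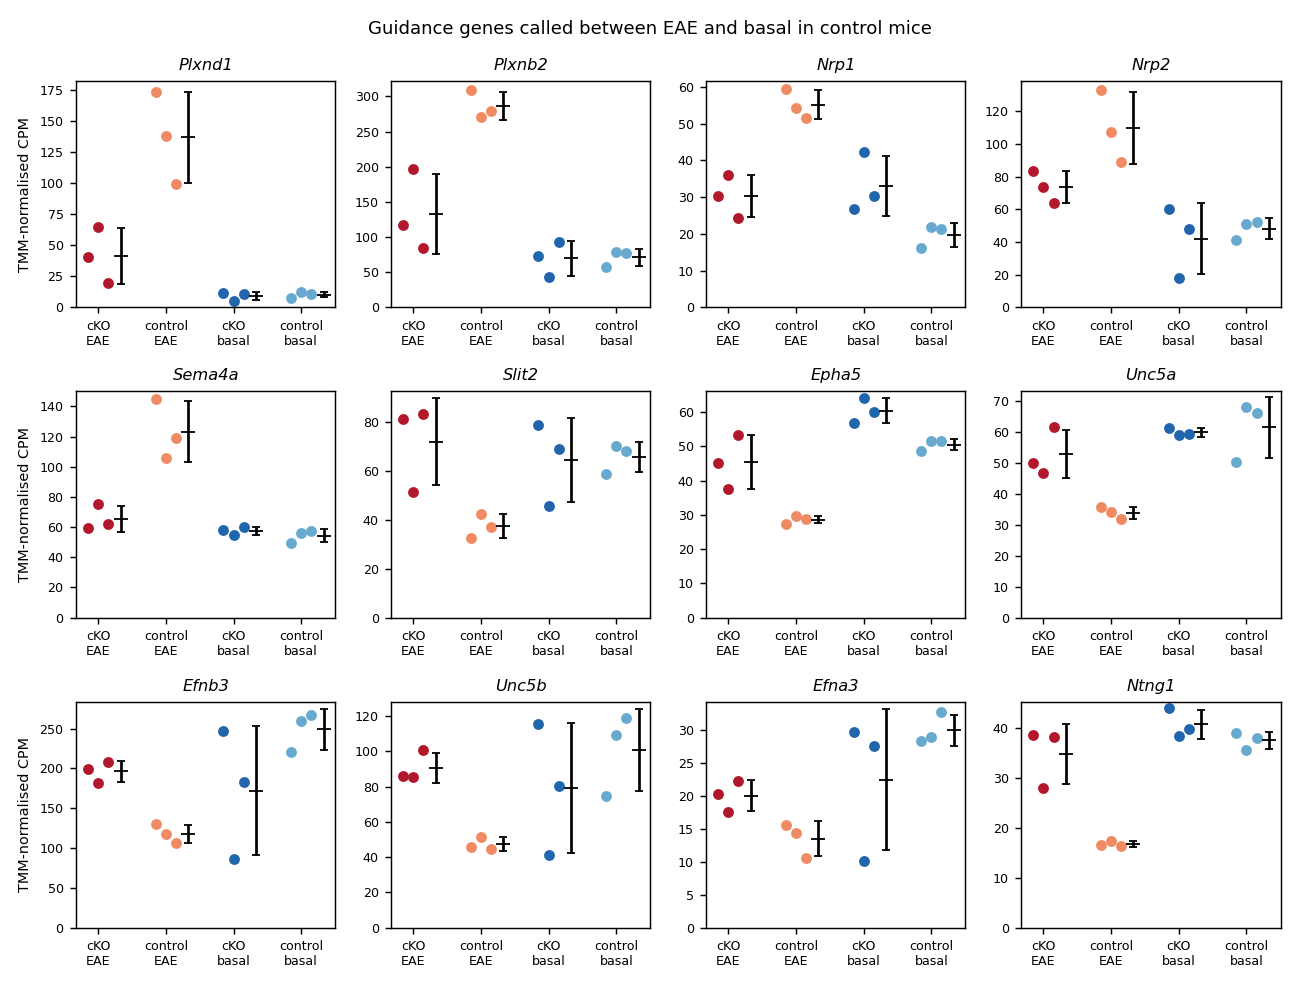
TMM-normalised CPM of the 12 guidance genes called between EAE and basal in control mice, 1 point per library, with the groups in the order cKO EAE, control EAE, cKO basal, control basal. The 3 control EAE libraries lie above every control basal library for the 5 genes that rose, such as Plxnd1 with 99.4 to 173 CPM, and below for the 7 that fell.

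Among the genes that fell, Ntng1 encodes netrin-G1, a membrane-anchored netrin that binds an adhesion partner at synapses. At chr3:109780040-110144011, it had 16.6, 17.5 and 16.4 CPM in control EAE libraries, against 39.0, 35.7 and 38.1 CPM in control basal libraries. These tight groups gave a log2 fold change of −1.16 with SE 0.17 (edgeR adjusted p 0.00318). The netrin receptors that repel axons fell too. Unc5a had 35.6, 34.2 and 31.8 CPM in control EAE, against 50.3, 67.9 and 66.2 CPM in control basal (−0.86, SE 0.17, edgeR adjusted p 0.00752), and Unc5b 46.0, 51.7 and 44.4 CPM, against 74.7, 109 and 119 CPM (−1.09, SE 0.32, edgeR adjusted p 0.0381). Neither gene's groups overlapped. Unc5a overlaps Hk3 on the opposite strand, and the strand setting of the counting is not given in the sources used here. Hk3 was at 57.2 to 110 CPM in control EAE and 0.884 to 1.33 CPM in control basal libraries, so it moved the other way from Unc5a.

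In the ephrin system 2 ligands and 1 receptor were called, all lower. Efnb3 had 130, 117 and 106 CPM in control EAE, against 220, 260 and 267 CPM in control basal libraries, and fell by 1.08 on the log2 scale (SE 0.31, edgeR adjusted p 0.0342). Efna3 had 15.6, 14.3 and 10.6 CPM, against 28.2, 28.8 and 32.7 CPM (−1.15, SE 0.34, edgeR adjusted p 0.0422), and Epha5, a receptor of ephrin-A ligands, 27.4, 29.7 and 28.8 CPM, against 48.7, 51.4 and 51.4 CPM (−0.82, SE 0.16, edgeR adjusted p 0.00716). The groups were apart for all 3. The midline repellent Slit2 had 32.4, 42.3 and 37.3 CPM in control EAE, against 58.9, 70.1 and 68.3 CPM in control basal, and fell by 0.82 (SE 0.25, edgeR adjusted p 0.0450).

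In some families all tested members had the same sign. Both neuropilins were positive and called, and both class 5 semaphorins were negative. All 5 Dcc and Unc5 receptors were negative (median −0.72), with 2 called, and all 3 Slits (median −0.82), with 1 called. Of 9 plexins 7 were positive (median 0.25), with 2 called, and of 6 class 4 semaphorins 4 (median 0.56), with 1 called. The 9 EphA receptors had a median of −0.57 with 1 called and the 4 tested ephrin-A ligands −0.69 with 1 called. The 5 EphB receptors, the 4 Robos and the semaphorins of classes 3, 5, 6 and 7 had none called.

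Several well-known members did not pass the test. Epha4, the receptor through which ephrin-B3 repels corticospinal axons, was at −0.62 with SE 0.25, Robo1 at −0.63 with SE 0.48 and Dcc, the attractive netrin receptor, at −0.72 with SE 1.00. Ntn1 was at 0.55 with SE 0.19, the vascular Robo4 at 0.62 with SE 0.23 and the venous receptor Ephb4 at 1.00 with SE 0.37. The arterial ephrin Efnb2 was at −0.41 with SE 0.35, Ephb2 at −0.06 with SE 0.25 and Efna1 at 0.14 with SE 0.38. None of these passed the test in this fit. Of 7 other settings, Ntn1, Robo4 and Ephb4 were called in 4, Epha4 and Robo1 in 3 and Dcc in 1. Efnb3, Plxnb2, Unc5b, Efna3 and Nrp2 were called and led their families in level, but other family leaders were not, with Sema3c at −0.28 (SE 0.21), Sema5a at −0.29 (SE 0.42), Sema6b at −0.51 (SE 0.43), Epha10 at −0.31 (SE 0.42), Ephb6 at −0.58 (SE 0.42) and Slit1 at −0.50 (SE 0.58). Sema6b and Ephb6 were called in 3 of the 7 other settings, and Sema5a, Epha10 and Slit1 in 1. Ntng2 (0.24, SE 0.96), Plxna1 (0.48, SE 0.66) and Plxnb1 (0.25, SE 0.27) had positive values within about 1 SE of 0.

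Neuronal and oligodendrocyte markers were lower where these genes fell. The 8 neuronal markers summed to 2164 to 2758 CPM in control EAE libraries and to 5239 to 6237 CPM in control basal libraries, 3 of them called down, and the 5 motor neuron markers to 32.2 to 65.2 CPM and to 159 to 208 CPM, 1 called down. The 5 oligodendrocyte markers summed to 11840 to 15357 CPM and to 22359 to 23492 CPM, all 5 negative and 1 called down. Their part in the falls was not tested. The calls of 7 genes (Plxnd1, Plxnb2, Nrp1, Sema4a, Ntng1, Epha5 and Unc5a) held in each of the 12 fits that left out 1 library and in each of 7 other settings, whereas those of Nrp2, Efna3, Efnb3, Unc5b and Slit2 were lost in some. Without the cKO basal 2 and cKO EAE 3 libraries 42 of 68 were called (61.8%, against 45.8% of all genes), 15 up (22.1%, against 24.9%) and 27 down (39.7%, against 20.8%).

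**Figure D3:**
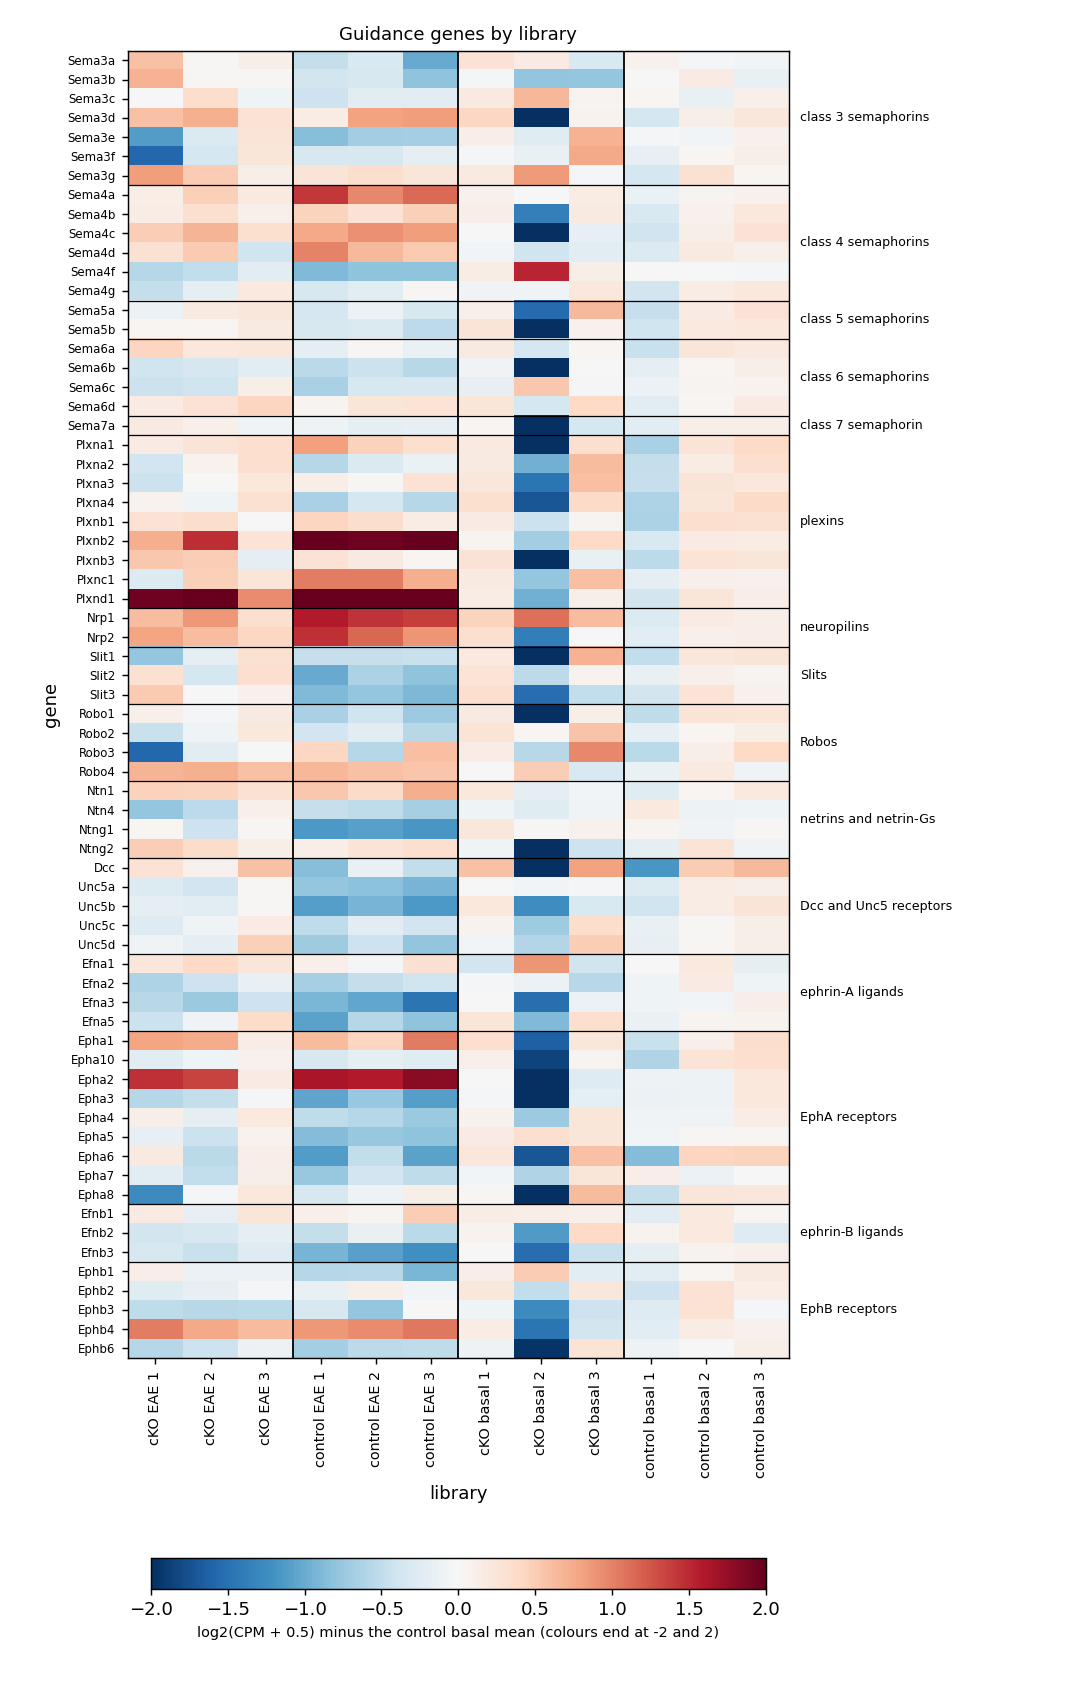
Level of the 68 tested guidance genes in each library, as log2(CPM + 0.5) minus the control basal mean, with the libraries in the order cKO EAE, control EAE, cKO basal and control basal. The cKO basal 2 and control basal 1 columns, the lowest of their groups for 57 and 59 of the 70 genes, differ from their neighbours, and Plxnd1 is highest in the control EAE columns.

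In cKO mice no guidance gene was called between EAE and basal cords (0 of 68, against 0.0376% of all genes by edgeR's test, 0.0323% up and 0.00538% down), and 9 had an unadjusted p below 0.05 (13.2%, against 19.6% of all genes). The median was 0.14 over the guidance genes (40 positive and 28 negative) and 0.08 over all genes, but that of the guidance genes was −0.21 (26 positive and 42 negative) without cKO basal 2 and cKO EAE 3. Every cKO EAE library lay above every cKO basal library for 10 of the 68 (14.7%, against 9.80% of all genes) and below for 2 (2.94%, against 5.78%). DESeq2 called 4 guidance genes (against 6.88% of all genes) and limma's voom 26 (against 19.6%). The smallest p was that of Plxnd1, with 40.1, 64.9 and 19.7 CPM in cKO EAE libraries, against 11.1, 4.91 and 10.9 CPM in cKO basal libraries. Every EAE library was above every basal one (2.20, SE 0.45, edgeR adjusted p 0.0729).

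The other 4 with the smallest p were Epha2 (1.95, SE 0.67), Ephb4 (1.32, SE 0.38), Plxnb2 (0.93, SE 0.33) and the class 4 semaphorin Sema4f (−1.19, SE 0.34), with edgeR adjusted p from 0.128 to 0.196. Sema4f was at 31.7, 33.5 and 41.0 CPM in cKO EAE, against 52.5, 138 and 51.3 CPM in cKO basal, the highest in cKO basal 2. Leaving out that library and cKO EAE 3 gave a smaller value, −0.68, which was called down. Plxnb2 had 116, 196 and 84.9 CPM in cKO EAE, against 73.1, 43.1 and 92.6 CPM in cKO basal libraries, which overlap. Without cKO basal 2 and cKO EAE 3, 15 genes were called (22.1%, against 14.3% of all genes). Of these 7 were up (10.3%, against 10.8%), among them Plxnd1 (2.24, SE 0.29), Epha2 (1.77, SE 0.27), Ephb4 (1.03, SE 0.24), Plxnb2 (0.90, SE 0.23) and Robo4 (0.86, SE 0.18). The other 8 were down (11.8%, against 3.51%), among them Sema3f (−1.30, SE 0.34), Sema3e (−1.15, SE 0.27), Slit1 (−0.93, SE 0.26) and Epha5 (−0.51, SE 0.13). That comparison rests on 2 libraries against 2. In it the markers called up were 7 of 7 for microglia and macrophages, 5 of 5 for T cells, 3 of 3 for neutrophils, 3 of 3 for Schwann cells, 4 of 5 for fibroblasts and meninges and 3 of 5 for endothelium, and 4 of 8 neuronal markers were called down. The part of these cells in the 15 calls was not tested.

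The genotypes were then compared at EAE. Slit2, Slit3, Ntng1, Unc5a, Unc5b and Efnb3 were among the genes that were higher in cKO EAE cords than in control EAE cords, and Sema4a and Nrp1 were lower. In the fit of the 6 EAE libraries 14 of 68 guidance genes were called by edgeR (20.6%, against 7.67% of 17914 genes), 12 up (17.6%, against 6.13%) and 2 down (2.94%, against 1.54%). The median was 0.24 over the guidance genes and close to 0 over all genes. All 14 had adjusted p between 0.0440 and 0.0486, and the count went to 0 with any 1 control EAE library or cKO EAE 1 left out and with all 12 libraries in the fit, when no gene of the whole table was called.

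Some repellents and receptors of repellents were among the higher genes. Slit3 had 20.8, 14.3 and 15.2 CPM in cKO EAE libraries, against 7.56, 8.23 and 7.46 CPM in control EAE libraries (1.15, SE 0.18, edgeR adjusted p 0.0440). Slit2 had 81.2, 51.5 and 83.4 CPM, against 32.4, 42.3 and 37.3 CPM (0.99, SE 0.21, edgeR adjusted p 0.0476). Their receptor Robo1 had 83.1, 74.9 and 87.1 CPM, against 49.2, 58.2 and 46.4 CPM (0.71, SE 0.12). In each of these the lowest cKO EAE library was above the highest control EAE library.

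In the netrin system Ntng1 had 38.6, 28.0 and 38.2 CPM in cKO EAE, against 16.6, 17.5 and 16.4 CPM in control EAE libraries (1.09, SE 0.15). Unc5b had 86.1, 85.2 and 101 CPM, against 46.0, 51.7 and 44.4 CPM (0.97, SE 0.11), and Unc5a 50.1, 46.8 and 61.7 CPM, against 35.6, 34.2 and 31.8 CPM (0.68, SE 0.13). All 3 groups of cKO EAE libraries were clear of the control EAE ones. Hk3, which overlaps Unc5a, was at 2.67 to 27.0 CPM in cKO EAE and 57.2 to 110 CPM in control EAE libraries.

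In the ephrin system Efnb3 had 199, 182 and 208 CPM in cKO EAE, against 130, 117 and 106 CPM in control EAE libraries (0.78, SE 0.11). Its receptor Epha4 had 38.2, 30.7 and 39.9 CPM, against 24.4, 23.4 and 20.8 CPM (0.70, SE 0.14), and Ephb1 78.0, 66.0 and 65.6 CPM, against 47.9, 48.7 and 37.5 CPM (0.68, SE 0.14). None of the 3 overlapped between groups. Epha5 (0.70, SE 0.14), the class 3 and 6 semaphorin receptor gene Plxna4 (0.67, SE 0.14) and the repellent Sema5b (0.51, SE 0.11) were also called up.

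The 2 lower genes had narrow ranges. Sema4a had 59.3, 75.5 and 61.8 CPM in cKO EAE, against 145, 106 and 119 CPM in control EAE libraries (−0.88, SE 0.15). Nrp1 had 30.3, 36.0 and 24.4 CPM, against 59.4, 54.3 and 51.7 CPM (−0.83, SE 0.15). Plxnd1 and Plxnb2 were apart between the groups as well but did not pass the test. Plxnd1 had 40.1, 64.9 and 19.7 CPM, against 173, 138 and 99.4 CPM (−1.68, SE 0.42, edgeR adjusted p 0.0563), and Plxnb2 116, 196 and 84.9 CPM, against 309, 271 and 280 CPM (−1.08, SE 0.28, edgeR adjusted p 0.0594).

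Over all tested guidance genes, 24 (35.3%, against 21.2% of all genes) had every cKO EAE library above every control EAE library and 8 (11.8%, against 26.7%) had every one below. Without the cKO EAE 3 library, 24 genes were called (35.3%, against 18.2% of all genes), 19 up (27.9%, against 9.11%) and 5 down (7.35%, against 9.10%), with Plxnd1 (−1.35, SE 0.26), Plxnb2 (−0.84, SE 0.19) and Plxnc1 (−0.76, SE 0.21) among those called down. This comparison and the disease comparison in control mice share the control EAE libraries.

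Several uncalled genes were also clear of each other between the genotypes at EAE. Sema3a had 29.96, 20.2 and 21.6 CPM in cKO EAE libraries, against 14.2, 16.0 and 9.68 CPM in control EAE libraries (0.89, SE 0.24, edgeR adjusted p 0.0635). Dcc had 8.74, 7.49 and 10.8 CPM, against 3.69, 6.27 and 4.84 CPM (0.90, SE 0.25, edgeR adjusted p 0.0646). Efna5, an ephrin-A ligand with a repellent role in topographic maps, was also separate between the groups. It had 11.6, 14.98 and 20.5 CPM, against 7.27, 10.5 and 8.75 CPM (0.86, SE 0.24, edgeR adjusted p 0.0669), and Unc5d, another Unc5 receptor, 23.5, 21.6 and 34.9 CPM, against 14.9, 18.6 and 14.1 CPM (0.79, SE 0.22, edgeR adjusted p 0.0644). With these, all 5 Dcc and Unc5 receptors had positive values and an unadjusted p below 0.05, of which Unc5a and Unc5b were called. Such a p was common in this comparison, found in 34 of the 68 guidance genes and in 35.9% of all genes. By family it ran from 1 of 5 EphB receptors and 1 of 4 Robos to 2 of 2 neuropilins.

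Other members differed little between the genotypes at EAE. Plxnb1 had 189, 197 and 153 CPM in cKO EAE libraries, against 207, 196 and 172 CPM in control EAE libraries (−0.05, SE 0.13). Sema6d, a transmembrane ligand of plexin A1, had 157, 170 and 187 CPM, against 145, 164 and 168 CPM (0.15, SE 0.10), and Sema4g 35.1, 42.7 and 55.8 CPM, against 39.1, 42.3 and 49.7 CPM (0.06, SE 0.18). These groups overlapped. So did those of the vascular receptor genes, with Robo4 at 17.6, 18.1 and 16.5 CPM, against 17.4, 16.4 and 16.2 CPM (0.10, SE 0.10), and Ephb4 at 13.1, 10.8 and 9.85 CPM, against 11.6, 12.3 and 13.2 CPM (−0.10, SE 0.15). The EphA receptors Epha1 (1.22 to 2.18 CPM in cKO EAE and 1.60 to 2.68 CPM in control EAE libraries) and Epha3 (1.49 to 2.37 CPM and 0.875 to 1.24 CPM) and the Robo family member Robo3 (0.517 to 2.55 CPM and 1.54 to 4.08 CPM) were too low for firm statements.

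Cell markers differed between the genotypes at EAE too. The neuronal markers summed to 3988 to 5353 CPM in cKO EAE and 2164 to 2758 CPM in control EAE libraries, 4 of 8 called up, and the motor neuron markers to 141 to 297 CPM and 32.2 to 65.2 CPM, 4 of 5 called up. The microglia and macrophage markers summed to 145 to 1552 CPM in cKO EAE and 2261 to 4908 CPM in control EAE libraries, none of 7 called, and the T cell markers to 4.62 to 33.2 CPM and 71.4 to 78.6 CPM, 1 of 5 called down. The lowest sums of both immune lists were those of cKO EAE 3. Its 145 CPM of microglia and macrophage markers compares with 110 to 135 CPM in basal libraries. Without cKO EAE 3, 4 of 7 microglia and macrophage markers and 5 of 5 T cell markers were called down. In that fit 6 of 8 neuronal and 5 of 5 motor neuron markers were called up. The Schwann cell markers summed to 118 to 547 CPM in cKO EAE and 90.8 to 106 CPM in control EAE libraries. The oligodendrocyte markers summed to 17226 to 23288 CPM in cKO EAE and 11840 to 15357 CPM in control EAE libraries, all 5 positive and none called (4 called up without cKO EAE 3). The part of these markers' cells in the guidance genes' differences was not tested.

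**Figure D4:**
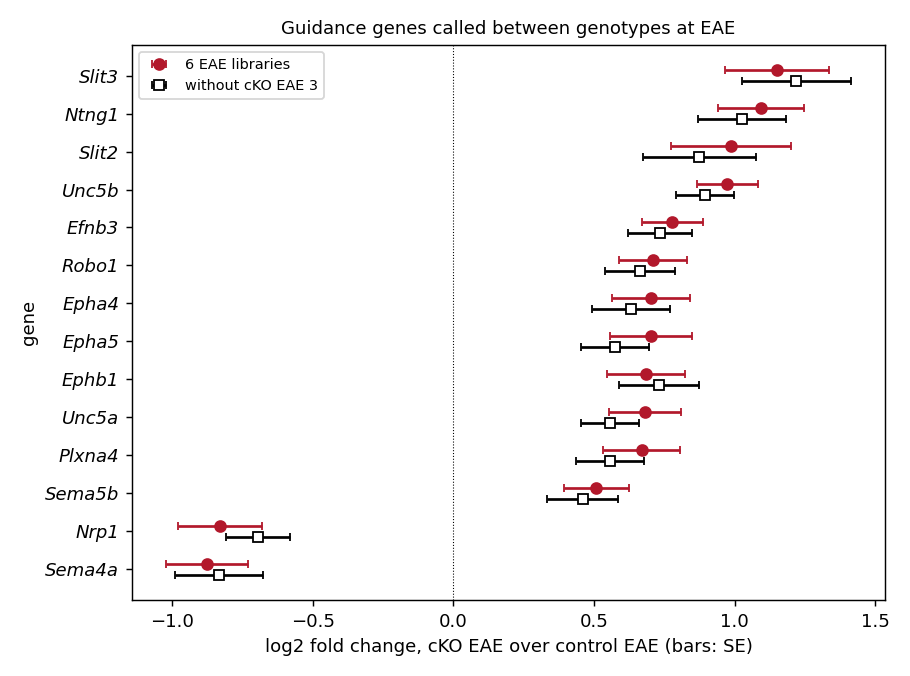
log2 fold change of cKO EAE over control EAE with its SE for the 14 guidance genes called, in the fit of the 6 EAE libraries (filled) and without the cKO EAE 3 library (open). All 12 higher genes lie right of 0 and Sema4a and Nrp1 left of it in both fits, and Slit3 lies furthest right, at 1.15 in the 6 libraries.

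Without disease no guidance gene was called between cKO basal and control basal cords (0 of 68, against 0.00% of 17133 genes by edgeR's test, with 0 also by DESeq2, against 0.00598%, and by voom, against 0.00%), and 1 had an unadjusted p below 0.05 (1.47%, against 0.181% of all genes). Every cKO basal library lay above every control basal library for 3 genes (4.41%, against 2.14%) and below for none (against 3.64%). The gene with the small p was Nrp1, with 26.8, 42.3 and 30.2 CPM in cKO basal against 16.0, 21.9 and 21.3 CPM in control basal libraries (0.76, SE 0.29, edgeR adjusted p 0.997). The other genes with the smallest p were Sema4f (0.78, SE 0.44; 0.13, SE 0.13 without cKO basal 2, which had 138 CPM), Sema3b (−0.49, SE 0.31), Ephb3 (−0.55, SE 0.39) and Epha5 (0.27, SE 0.20).

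The EAE response of cKO mice minus that of control mice was called for no guidance gene (0 of 68, against 0.00% of 18601 genes), and 11 had an unadjusted p below 0.05 (16.2%, against 9.12% of all genes). DESeq2 called 3 (against 0.465% of all genes) and voom 21 (against 16.1%). The smallest p values belonged to Nrp1 (−1.61, SE 0.32), Sema4a (−0.99, SE 0.24), Ntng1 (0.94, SE 0.24), Sema3b (1.28, SE 0.41) and Efnb3 (1.27, SE 0.43), each with an edgeR adjusted p of 0.547. Nrp1 had an EAE response of −0.13 (SE 0.23) in cKO cords and 1.48 (SE 0.23) in control cords, and Ntng1 −0.22 (SE 0.17) and −1.16 (SE 0.17), differences that did not pass the test. Nrp1 was highest among cKO libraries in cKO basal 2, at 42.3 CPM, and without that library and cKO EAE 3 its response in cKO cords was 0.21 (SE 0.17) and the difference −1.28 (SE 0.22). The median difference was 0.35 over the guidance genes with all libraries and 0.05 without those 2.

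**Figure D5:**
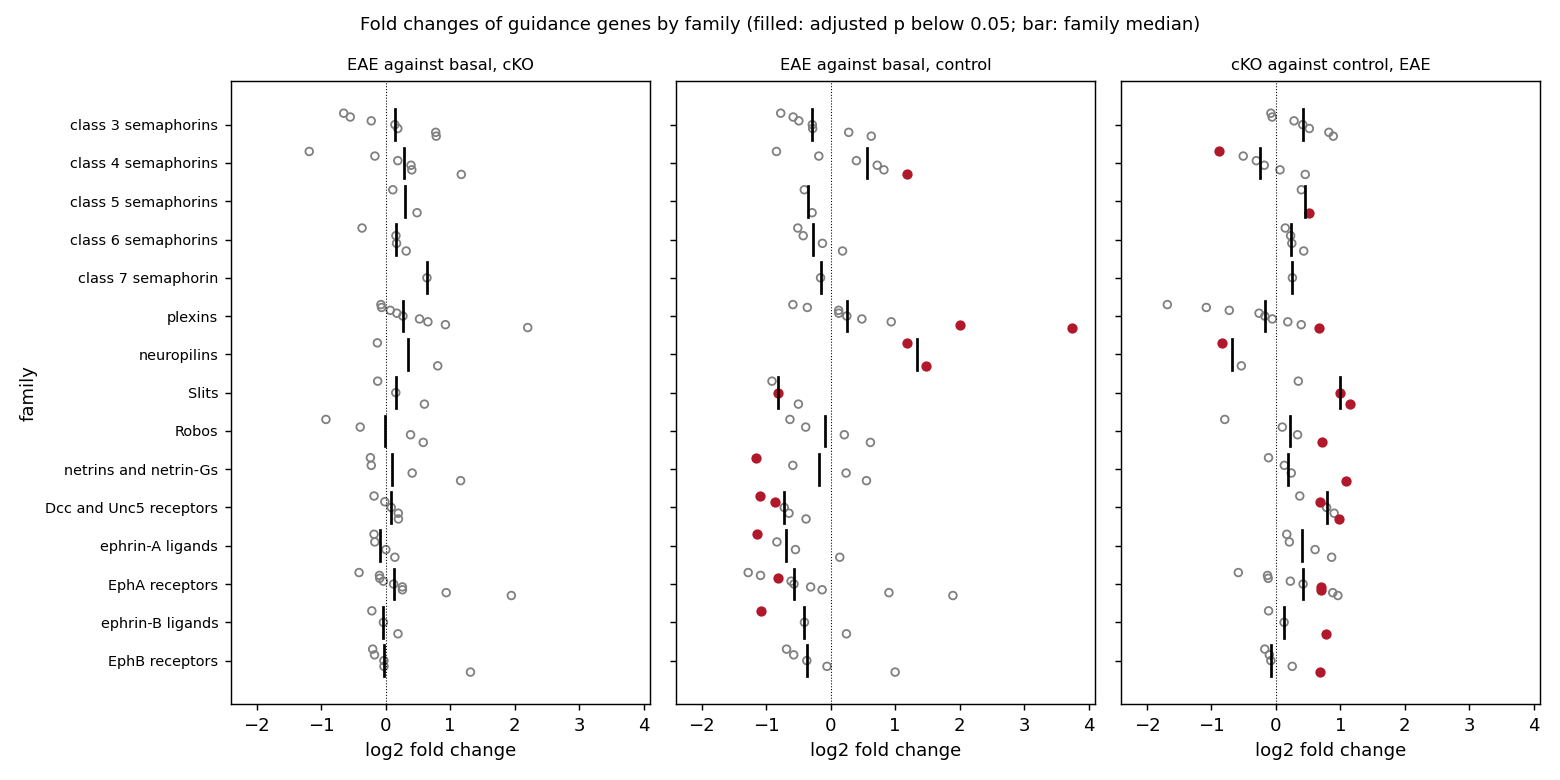
log2 fold changes of the tested guidance genes by family in the comparisons named above each panel, with 1 point per gene, filled where the adjusted p is below 0.05, and a bar at the family median. The Slits and the Dcc and Unc5 receptors lie left of 0 for EAE in control mice, at medians of −0.82 and −0.72, and right of 0 for cKO against control at EAE, at 0.99 and 0.79. Those comparisons share the control EAE libraries with opposite sign, so the mirrored medians are not independent.

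Further genes of the pathway were counted from lists. Of 36 intracellular effectors of guidance receptors, 1 rose and 3 fell in control EAE against control basal cords (11.1% called, against 17.1% of all genes). Rock1, a kinase that acts on the actin cytoskeleton, rose (0.99, SE 0.24), and the kinase gene Pak1 (−1.04, SE 0.18), the collapsin response mediator gene Dpysl5 (−0.92, SE 0.22) and the Slit-Robo GTPase-activating gene Srgap3 (−0.73, SE 0.20) fell, and the median was −0.11. Of 20 genes of other guidance and growth-inhibition systems, 2 rose and 2 fell (20% called, against the same 17.1%). The membrane protease Adam10, which cleaves ephrins, (1.11, SE 0.23) and the adhesion molecule Chl1 (0.93, SE 0.26) rose. The synaptic adhesion gene Slitrk1 (−1.18, SE 0.17) and Lingo1 (−0.93, SE 0.28), a partner of the Nogo receptor, fell.

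Between the genotypes at EAE, 6 effectors were called up in cKO cords (16.7%, against 6.13% of all genes) and none down (against 1.54%): Pak1 (0.83, SE 0.14), Srgap3 (0.79, SE 0.13), Dpysl5 (0.73, SE 0.12), Limk1 (0.64, SE 0.10), Chn1 (0.63, SE 0.13) and Mical3 (0.40, SE 0.08). Slitrk1 (1.04, SE 0.16), the myelin inhibitor Omg (0.90, SE 0.15) and the netrin and RGM receptor Neo1 (0.37, SE 0.08) were also called up, 3 of 20 (15%). These 9 calls had edgeR adjusted p between 0.0440 and 0.0482. In the other 3 comparisons none of the genes on both lists was called.

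Overlaps between genes limit some values. Of the 70 genes 43 overlap another annotated gene, and for 7 of them the neighbour held at least 10% as many counts: Unc5a, Epha1, Ephb4, Ntng2, Sema4c, Efna4 and Ntn5. Without the strand setting, reads of overlapping genes on opposite strands cannot be assigned here with certainty, as with Epha1, whose partner Zyx was at 127 to 159 CPM in control EAE and 71.6 to 88.4 CPM in control basal libraries.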

How the data were processed

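The deposited table held raw counts of reads per gene. Per the submitters' processing notes, the authors used HISAT2 2.0.5 for alignment (build mm10) and featureCounts 1.5.0-p3 for counting. Whether strand was used, how multi-mapping reads were handled, and the annotation release and library kit are not given in the sources used here. From these counts, levels were computed as CPM with TMM factors, and tests with edgeR 4.0.16 (quasi-likelihood F test, filterByExpr, no covariate) in R 4.3.3 over the whole table, with Benjamini-Hochberg adjustment over all genes tested and a threshold of 0.05. The SE is the size of the log2 fold change divided by the square root of F. Both EAE responses and their difference came from 1 fit of 12 libraries, and the genotype comparisons from the 6 libraries of each state. The script was tested on simulated counts. Alternatives were DESeq2 1.42.0, limma 3.58.1 voom, DESeq2 size factors, no filter, a replicate block, other sets of libraries and leaving out each library. Promoters are RefSeq's, build GRCm38.p6. Called genes were named in full, up to 8 per direction in each comparison by smallest p, or the 5 with the smallest p where fewer than 5 were called, plus the highest gene of each family and a fixed set of ligand and receptor pairs; other members are named by values. The members and lists were chosen with earlier results of these data known. Replicates were labelled as biological, but their cage or litter was not given.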

Additional observations from a re-analysis of the deposited data

Results flagged for a closer look

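Sema3b, a secreted class 3 semaphorin, was flagged because its libraries separated in opposite directions in the 2 genotypes. It had 33.5, 20.9 and 21.0 CPM in cKO EAE libraries against 20.3, 11.6 and 11.7 CPM in cKO basal libraries, and 15.9, 16.4 and 11.6 CPM in control EAE libraries against 20.4, 23.0 and 18.4 CPM in control basal libraries. Every cKO EAE library was above every cKO basal library, and every control EAE library was below every control basal library. This separation was the rule by which the gene was picked, so it adds no support, and the share of all genes that meet it is not given here. The margin in cKO mice was narrow, 20.9 against 20.3 CPM. The log2 difference between the responses was 1.28 (SE 0.41), and it did not pass edgeR's quasi-likelihood test, with a Benjamini-Hochberg adjusted p of 0.547.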

How the results depend on the processing

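The number of guidance genes called moved most with the settings. For EAE in control mice the 12 calls became 7 with no filter on low counts, 7 with the replicate block, 19 by DESeq2, 52 by voom, 42 without the libraries that stand apart and 39 from the control libraries alone, and 7 to 33 when 1 library was left out, the highest without cKO basal 2 and the lowest without any control EAE library or without control basal 2 or 3. For EAE in cKO mice the 0 calls became 1 with no filter, 4 by DESeq2, 26 by voom, 15 without the libraries that stand apart and 0 to 1 with 1 library left out (1 without cKO EAE 3). For cKO against control at EAE the 14 became 0 with the replicate block, 0 with all 12 libraries in the fit, 28 by DESeq2, 28 by voom, 24 without cKO EAE 3 as the library that stands apart, and 0 to 24 with 1 left out, with 22 without cKO EAE 2 and 0 without cKO EAE 1 or any 1 control EAE library. For the difference between the responses the 0 became 3 by DESeq2 and 21 by voom, and at the basal state it was 0 in every setting. The share of all genes called moved with the settings too. Without the libraries that stand apart it went from 17.1% to 45.8% for EAE in control mice and from 0.0376% to 14.3% in cKO mice. Between the genotypes at EAE it went from 7.67% to 18.2%. By voom it was 19.6% for EAE in cKO mice and 16.1% for the difference. It is not given here for every setting, so these counts are not results about the guidance genes alone. The cause of these moves was not tested. The main tests did not pair samples by replicate number. Deviations of same-numbered libraries from their group means correlated at -0.507 to 0.424 over 18 pairs, 4 of them over 0.1. With 3 libraries per group, and cKO basal 2 and control basal 1 unlike the rest of theirs, these values cannot settle whether the numbers pair samples.

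Among the genes followed through the settings, the direction changed for 3 uncalled genes of the control EAE comparison with values near 0: Efna1 was at -0.0415 without control EAE 3 (-0.0415 to 0.22 over the left-out libraries), Ephb2 at 0.0501 without control basal 2 (-0.25 to 0.0501) and Plxnb1 at -0.00871 without control basal 1 (-0.00871 to 0.36). Over the called genes and settings the call was kept 248 times and lost 110 times, with the direction held. Over all 68 tested guidance genes, leaving out cKO basal 2 and cKO EAE 3 changed the sign of 0 for EAE in control mice, 20 for EAE in cKO mice, 5 for cKO against control at EAE, 32 at the basal state and 19 for the difference between the responses. Scaling with DESeq2's size factors moved the median of all genes by less than 0.1 on the log2 scale. With 1 count worth up to 0.0910 CPM, counting error limits the genes near 1 CPM, such as Epha3 and Robo3.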
